A study of Mus musculus with 6 samples.

Results

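The family of the miR-130 and miR-301 microRNAs (miRNAs) was described in mouse c-kit+ cardiac progenitor cells with and without hypoxic culture. The members were chosen by name, as the rows for miR-130a, miR-130b, miR-301a and miR-301b with a 3p or 5p arm. The rule uses no measured value, but it was set with earlier results of these data known. This gave 8 of the 1978 known mature miRNAs in the count table, both arms of each of 4 hairpins. The cells came from digested hearts of wild-type male C57BL/6 mice, 4 to 6 weeks old, by magnetic sorting on c-kit, a receptor tyrosine kinase. The control group held 3 libraries labelled 0 hours and the hypoxia group 3 libraries of cells kept under hypoxia for 12 hours. All 6 libraries carry the treatment label hypoxia, the controls too, so the groups rest on the sample titles and times. Hypoxia and time in culture cannot be told apart unless the controls were cultured equally long, and no source used here states the oxygen level. The extraction label speaks of RNA from exosomes and the design text of RNA from cells. Which was sequenced is not settled, so the levels below are those of the libraries and need not be levels within cells. Whether the biological replicates came from separate animals or cultures is not given, so p-values speak only of the spread between libraries, part of which may be technical. The columns of the table were read as control where they start with 0 and as hypoxia where they start with 1, and each direction below depends on that reading. A trailing letter, A, B or C, names the library within its group.

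A miRNA hairpin is cut into a 5p and a 3p arm, and the arm loaded into an Argonaute protein guides it to messenger RNAs that pair with its seed, bases 2 to 8 from the 5′ end. In this family the 3p arms are the usual guides, and they share a seed. miR-130a is known in endothelial cells, where it represses the antiangiogenic homeobox genes Meox2 and Hoxa5, and the family is known for repressing Pparg in pulmonary vessels exposed to hypoxia.

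The mature sequences, from RefSeq for GRCm38.p6, are shown because the seed defines the family and because the likeness of the members bears on how reads were assigned. Of the 8 members 7 matched, and mmu-miR-301b-3p did not. The prefix mmu marks mouse and is left out below. Capitals mark the seed, first in the 3p arms and then in the 5p arms.
mmu-miR-130a-3p: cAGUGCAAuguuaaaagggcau
mmu-miR-130b-3p: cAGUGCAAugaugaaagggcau
mmu-miR-301a-3p: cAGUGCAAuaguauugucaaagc
mmu-miR-130a-5p: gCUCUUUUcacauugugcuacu
mmu-miR-130b-5p: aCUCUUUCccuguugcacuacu
mmu-miR-301a-5p: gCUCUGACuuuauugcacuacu
mmu-miR-301b-5p: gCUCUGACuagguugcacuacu

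The 3 matched 3p arms shared the seed AGUGCAA, which 7 of 1679 mature miRNAs in the reference carried (0.417%). The other 4 with that seed, miR-130c, miR-721, miR-6341 and miR-6389, had a count of 0 in all 6 libraries. By counting error alone, a count of 0 allows up to about 3 expected counts at 95% confidence. In the library of lowest depth, 3 counts are 0.244 CPM (counts scaled to 1000000 per library). Among the miRNAs found to carry this seed, the counts therefore lay in the family alone. The 5p arms fell into 3 seeds, of which CUCUGAC was common to miR-301a-5p and miR-301b-5p. miR-130a-3p and miR-130b-3p were identical at 20 of 22 positions and differed by U11A and A13G, with miR-130a-3p first and positions counted from the 5′ end. miR-130a-3p and miR-301a-3p were identical at 12 of 22 positions, with their first difference at position 10. No other known miRNA had counts within 1% of any member's in every library, so none of the 8 looked like a copy of another row. How reads matching several miRNAs were counted is not given, and the split between miR-130a-3p and miR-130b-3p may depend on it.

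The hairpins lie at 3 places in the genome (GRCm38). Mir130a lies on the minus strand at chr2:84741115-84741178, where GENCODE M21 has no other gene. Mir301, the hairpin of miR-301a, lies on the plus strand at chr11:87113004-87113089 in an intron of Ska2, a gene of the spindle and kinetochore machinery. Mir130b at chr16:17124061-17124142 and Mir301b at chr16:17124400-17124496 lie 257 bases apart on the minus strand, both in an intron of the protein-coding gene 2610318N02Rik. That pair was treated as one cluster.

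Each library held between 12285970 and 16975987 counts of known miRNAs, of which 6052 to 11344 were the family's. Its share of a library's counts was 0.0642% (exact Clopper-Pearson 95% interval 0.0628 to 0.0656) in control A, 0.0417% (0.0406 to 0.0427) in control B and 0.0579% (0.0567 to 0.0591) in control C. In hypoxia it was 0.0663% (0.0650 to 0.0676) in A, 0.0668% (0.0656 to 0.0681) in B and 0.0793% (0.0777 to 0.0808) in C. The 3 hypoxia libraries all lay above the 3 controls, though the intervals of control A and hypoxia A overlapped. Among single miRNAs, with the scaling used below, 46 of 619 tested were so separated (7.43%). miR-130a-3p, which held most of the family's counts, was 1 of them. The shares are scaled by library size only, and with that scaling the median log2 fold change of all tested miRNAs was 0.08. The intervals cover counting error alone and treat PCR copies as separate molecules.

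Levels are given as CPM after TMM scaling, which sets libraries to a common size. The mature arms are 22 or 23 bases long, so no length correction was made, though capture of different sequences can differ. In control, miR-130a-3p was the most abundant member at 349 ± 63.0 CPM (SD, n = 3), and stood at rank 100 among all known miRNAs by mean share of counts. It was 4.8 times the next, miR-301a-3p, at 72.9 ± 9.92 CPM, and their libraries did not overlap. miR-301a-3p and miR-130b-5p (66.2 ± 11.8 CPM) were neighbours whose ranges overlapped. Then came miR-301a-5p at 32.2 ± 3.00 CPM and miR-130b-3p at 21.7 ± 6.06 CPM, which did not overlap, although only 28.7 against 27.5 CPM separated their nearest libraries. The lowest 3 were miR-130a-5p at 5.13 ± 0.518, miR-301b-3p at 4.70 ± 1.89 and miR-301b-5p at 2.03 ± 0.721 CPM, each overlapping the next. In hypoxia 2 neighbouring pairs traded places: miR-130b-3p (30.4 CPM) stood above miR-301a-5p (25.4 CPM), and miR-301b-3p (5.68 CPM) above miR-130a-5p (5.01 CPM), both with overlapping ranges.

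**Figure D1:**
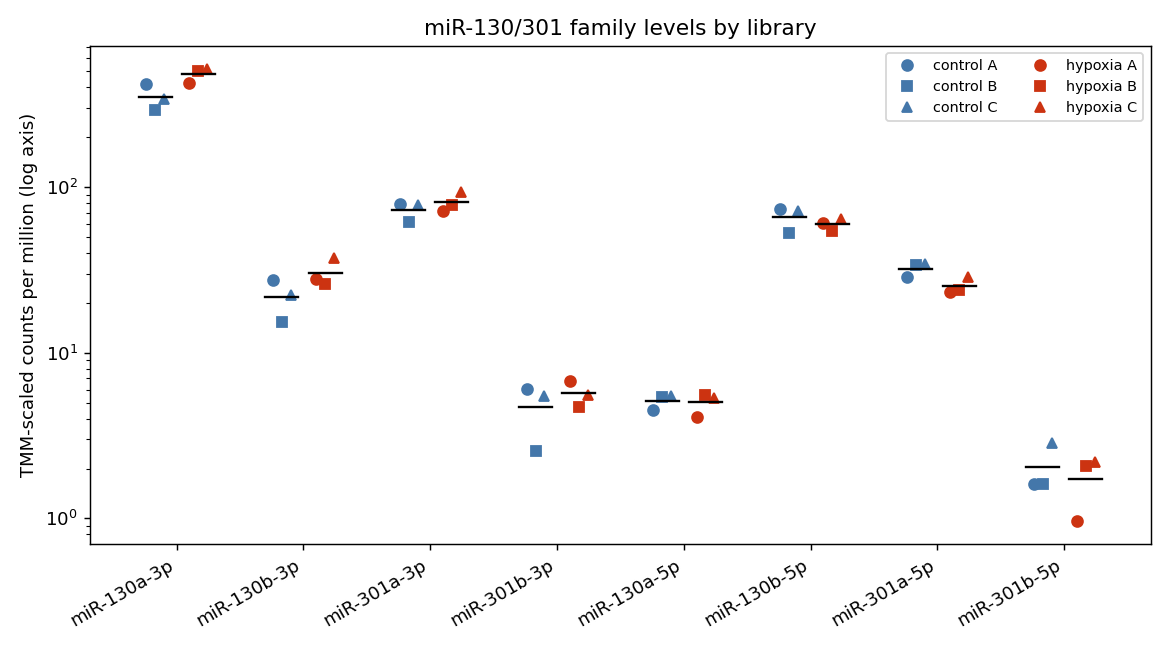
TMM-scaled CPM (log axis) of the 8 family members in each library. Blue symbols are control and red symbols hypoxia, circles, squares and triangles are libraries A, B and C, and black bars are group means (n = 3). Only for miR-130a-3p do all hypoxia libraries (426 to 520.0 CPM) lie above all controls (292.5 to 417 CPM).

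The comparison of the groups asks which members differed between libraries of cells with and without hypoxic culture. With TMM scaling, point estimates of the 4 3p arms lay above 0 and those of the 4 5p arms below 0, so that 4 of 8 members were above 0, where 317 of all 619 miRNAs tested were (51.2%). Their median log2 fold changes were 0.37 and -0.19, against 0.01 over those 619. Medians of the cell type marker lists were 0.54 (cardiomyocytes), 0.10 (endothelium), 0.07 (smooth muscle and fibroblasts), 0.03 (blood) and -0.25 (epithelium). Of the cardiomyocyte markers 4 of 4 tested lay above 0, and their summed level overlapped between the groups. The part of any of these cell types in the family's values was not tested. No member passed the test, edgeR's quasi-likelihood test with Benjamini-Hochberg adjustment over all 619 miRNAs at 0.05. All 8 members had passed the filter on low counts.

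miR-130a-3p, the angiogenic member, stood at 417, 292.5 and 339 CPM in controls A, B and C and at 426, 502 and 520.0 CPM in their hypoxia counterparts. The groups did not overlap, but control A and hypoxia A differed by little. Its mean was 349 ± 63.0 CPM in the controls and 483 ± 49.7 CPM under hypoxia (SD, n = 3 each), with an edgeR log2 fold change of 0.47 (SE 0.20, unadjusted p = 0.0437, adjusted p = 0.719). Within the letters the log2 differences of A, B and C were 0.03, 0.78 and 0.62. Members whose libraries did not overlap and were higher in hypoxia numbered 1 of 8, where 46 of all 619 were (7.43%).

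miR-130b-3p, which shares the guide seed and differs from miR-130a-3p at those 2 positions, stood at 27.5, 15.4 and 22.3 CPM in controls A, B and C and 27.7, 25.9 and 37.6 CPM in their hypoxia counterparts. Control B was the lowest library and control A lay among the hypoxia values. Its log2 fold change was 0.49 (SE 0.27, adjusted p = 0.784 by edgeR). Pairs B and C each gave 0.75 on the log2 scale and pair A 0.01, the same division between letters as in miR-130a-3p. The log2 fold change was 0.27 without control B and 0.28 without hypoxia C.

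miR-301a-3p, the guide arm from the Ska2 intron, stood at 78.7, 61.4 and 78.4 CPM in the controls and 71.6, 77.8 and 94.1 CPM under hypoxia. The groups overlapped, with a log2 fold change of 0.16 (SE 0.21, adjusted p = 0.986 by edgeR) that was 0.03 without control B and 0.01 without hypoxia C. Its cluster-borne relative miR-301b-3p rested on only 33 to 112 counts per library, at 6.07, 2.54 and 5.48 CPM in the controls and 6.73, 4.72 and 5.59 CPM under hypoxia (log2 fold change 0.27, SE 0.35, adjusted p = 0.986 by edgeR). Without control B, its lowest library, that value was -0.05.

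The 5p arms, usually degraded as passengers, had estimates below 0 in edgeR with TMM scaling. With scaling to library size only that of miR-130a-5p was 0.03. miR-301a-5p stood at 28.7, 33.7 and 34.2 CPM in the controls and 23.3, 24.0 and 28.8 CPM under hypoxia, so that hypoxia C just overlapped control A. Its log2 fold change was -0.34 (SE 0.19, adjusted p = 0.791 by edgeR). Within the letters the log2 differences of A, B and C were -0.30, -0.49 and -0.25. miR-130b-5p, the more abundant arm of its hairpin, stood at 74.3, 52.6 and 71.7 CPM in the controls and 61.1, 54.1 and 63.9 CPM under hypoxia. Its groups overlapped (log2 fold change -0.15, SE 0.21, adjusted p = 0.986 by edgeR), with values of -0.08 without control A, -0.10 without control C and -0.31 without control B. miR-130a-5p, at 4.53 to 5.48 CPM in the controls and 4.09 to 5.58 CPM under hypoxia, gave -0.04 (SE 0.25). miR-301b-5p, with 16 to 45 counts per library, gave -0.24 (SE 0.43), and both lay above 0 without control C or without hypoxia A.

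**Figure D2:**
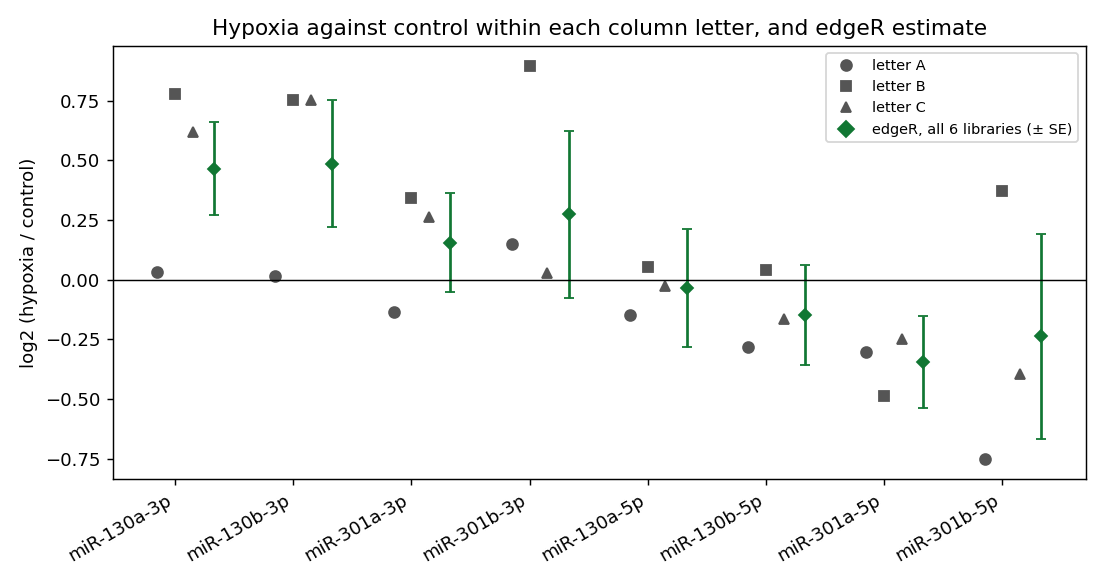
Log2 ratio of hypoxia to control for each member. Grey symbols are the ratios of TMM-scaled CPM within letters A, B and C, and green diamonds the edgeR estimates over all 6 libraries with SE. For miR-130a-3p and miR-130b-3p, letters B and C lie between 0.62 and 0.78 and letter A lies at 0.03 and 0.01.

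Over all 619 miRNAs this test called 0 (0%), as did limma-voom, while DESeq2 called 1, which was no member. An unadjusted edgeR p under 0.05 was reached by 42 (6.79%) and among the members by 1 of 8, miR-130a-3p. With a block for the letter, edgeR called 14 (2.26%) and 0 of the 8 members. The smallest adjusted values among the members were then 0.115 for miR-130a-3p (log2 fold change 0.48, SE 0.15), 0.130 for miR-130b-3p (0.50, SE 0.17) and 0.163 for miR-301a-5p (-0.35, SE 0.13). These 3 had an unadjusted blocked p under 0.05 in edgeR, as did 132 of the 619 (21.3%). DESeq2 with the block called miR-130a-3p (adjusted p = 0.049), 1 of 36 calls among the 528 miRNAs to which it gave an adjusted p (6.82%). edgeR with the block and scaling to library size only called 55 of 619 (8.89%), among them miR-130a-3p (adjusted p = 0.021) and miR-130b-3p (adjusted p = 0.027). That scaling put the median of all log2 fold changes at 0.08.

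In the ranking by log2 fold change, 50 of the 619 tested miRNAs lay at or above miR-130b-3p and 56 at or above miR-130a-3p, themselves included. The hypoxia library was the higher one in every same-lettered pair for 3 of 8 members (miR-130a-3p, miR-130b-3p and miR-301b-3p), where this held for 124 of 619 (20%).

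**Figure D3:**
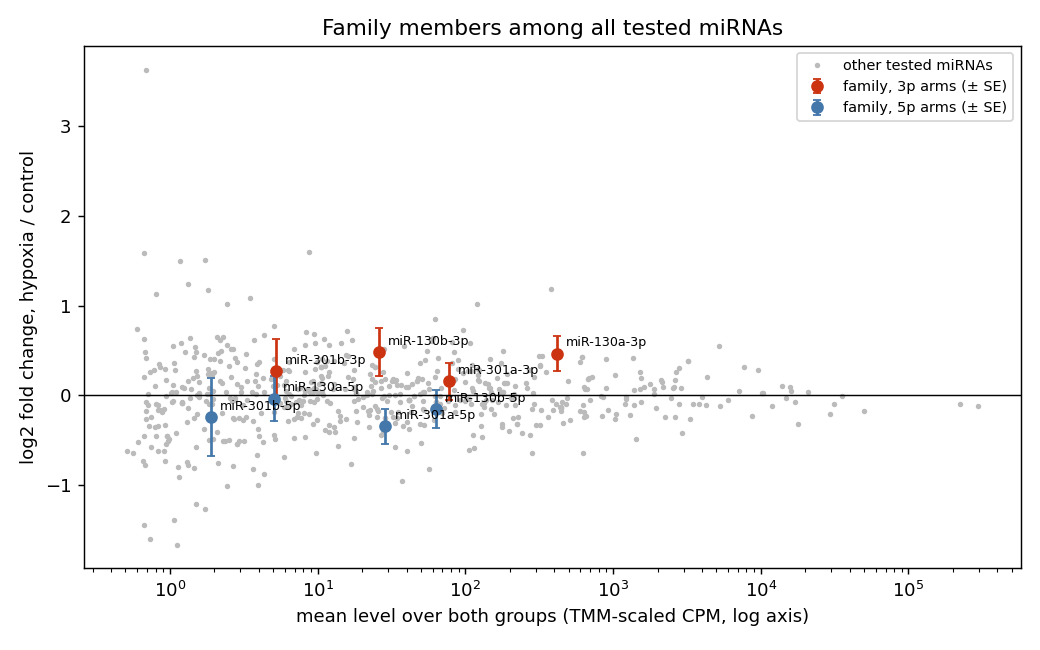
Log2 fold change of hypoxia over control against the mean level (TMM-scaled CPM, log axis) for the 619 tested miRNAs. Red and blue points with SE bars are the family's 3p and 5p arms, and grey points all others. The red points lie between 0.16 and 0.49 and the blue points between -0.34 and -0.04, inside the spread of the grey points.

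The summed level of the 4 3p arms was 529, 372 and 445 CPM in controls A, B and C and 532, 610.0 and 657 CPM under hypoxia. The mean was 449 ± 78.8 CPM in the controls and 599.8 ± 63.2 CPM under hypoxia (SD, n = 3 each), a ratio of 1.34. Control A and hypoxia A were nearly level, and the lowest library was control B. miR-130a-3p supplied 77.9% ± 1.5 of that sum in the controls and 80.5% ± 1.59 in hypoxia, and miR-301a-3p 16.3% ± 1.39 and 13.5% ± 0.778. The 4 5p arms together stood at 106 ± 10.9 CPM in the controls and 91.8 ± 7.56 CPM under hypoxia.

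The arms of 1 hairpin are cut from the same precursor, and their ratio within a library does not depend on how libraries are scaled. In the family, the log2 ratio of 3p to 5p counts (0.5 added to each) was higher in hypoxia for 4 of 4 hairpins and within all 3 same-lettered pairs of each. Over the 189 hairpins with both arms tested, 101 had a higher mean ratio in hypoxia (53.4%) and 41 were higher within all 3 pairs (21.7%). The hairpin is a shared source of both arms, and Mir130b and Mir301b also share a locus. The differences are not independent of the levels above, since they are made from the same counts. The median difference over the 189 was 0.02.

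miR-130b departed from the family's usual preference, with more 5p than 3p counts in every library. The 3p arm held 27.0% (95% interval 24.6 to 29.5), 22.6% (19.9 to 25.5) and 23.7% (21.6 to 26.0) of the hairpin's counts in control A, B and C. In hypoxia A, B and C it held 31.2% (28.9 to 33.6), 32.4% (29.8 to 35.0) and 37.0% (34.5 to 39.6). All hypoxia libraries lay above all controls, although the intervals of control A and hypoxia A overlapped. The means were 24.4% ± 2.28 and 33.5% ± 3.08 (SD, n = 3 each), while the level of both arms together was 87.9 ± 17.7 CPM in the controls and 90.1 ± 10.8 CPM under hypoxia. The log2 ratio was higher by 0.64 (SE 0.22), with a two-sided exact permutation p = 0.1, the smallest that 3 libraries against 3 allow, and p = 0.54 after adjustment over the 189 hairpins. By limma over all 189 the adjusted p was 0.251, and 0.303 with the letter block.

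miR-301a favoured its 3p arm. There were 2.74, 1.82 and 2.29 3p counts for each 5p count in controls A, B and C. In the hypoxia libraries there were 3.07, 3.25 and 3.26. The groups did not overlap, and the hypoxia libraries were close together. The log2 ratio was higher by 0.50 (SE 0.23, exact permutation p = 0.1, adjusted p = 0.54, limma adjusted p = 0.403). Again both arms together were level, at 105 ± 9.03 CPM in the controls and 107 ± 14.6 CPM under hypoxia (SD, n = 3 each).

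miR-130a had by far the strongest 3p preference of the 4, with 92.0, 54.4 and 61.9 3p counts for each 5p count in the controls and 104, 89.9 and 96.8 in hypoxia. Control A overlapped the hypoxia range, and the log2 ratio was higher by 0.52 (SE 0.25, exact permutation p = 0.2, adjusted p = 0.663). For miR-301b the ratios were 3.75, 1.57 and 1.91 in the controls and 7.0, 2.26 and 2.57 in hypoxia, with both A libraries above the B and C libraries. Its difference of 0.61 (SE 0.47, exact permutation p = 0.5, adjusted p = 0.834) was 0.11 without hypoxia A, where 16 counts of the 5p arm lay. It was 0.36 without control B and 0.98 without control A.

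**Figure D4:**
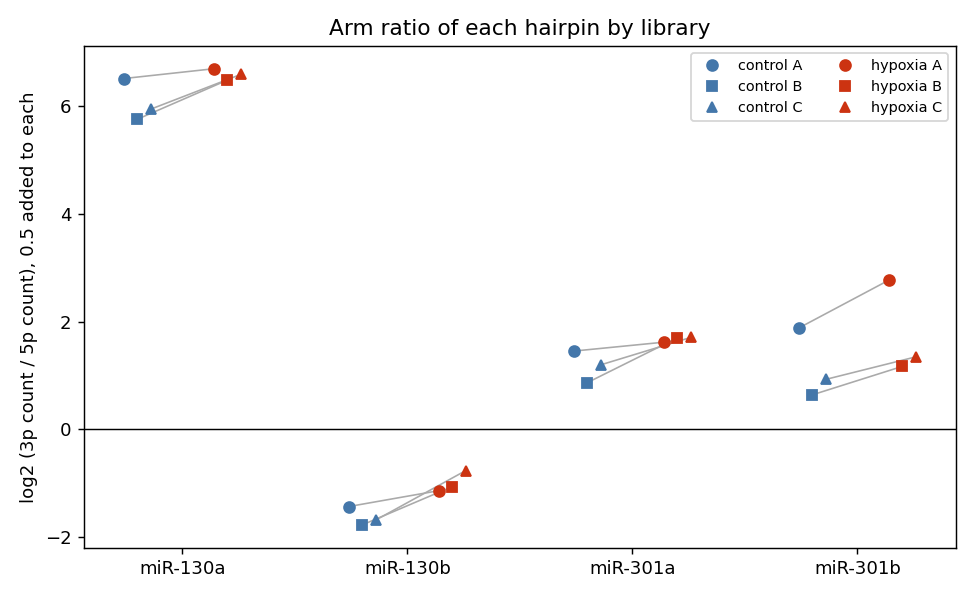
Log2 ratio of 3p to 5p counts of each hairpin by library (0.5 added to each count), control in blue and hypoxia in red, with grey lines joining same-lettered libraries. All 12 lines slope upward, and the miR-130b values lie below 0, where the 5p arm is the more abundant.

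Ratios that did not overlap and were higher in hypoxia were found for 2 of the 4 hairpins, miR-130b and miR-301a, and for 19 of the 189 (10.1%). In the order of differences, 12 of the 189 hairpins lay at or above miR-130b, 15 at or above miR-301b, 25 at or above miR-130a and 27 at or above miR-301a, each counting itself. limma called 2 of the 189 (1.06%) and 0 with the block (0%), neither of the 2 in this family. At an unadjusted limma p under 0.05 there were 24 of 189 (12.7%), among them miR-130b, and with the block 28 of 189 (14.8%), among them miR-130b and miR-301b.

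**Figure D5:**
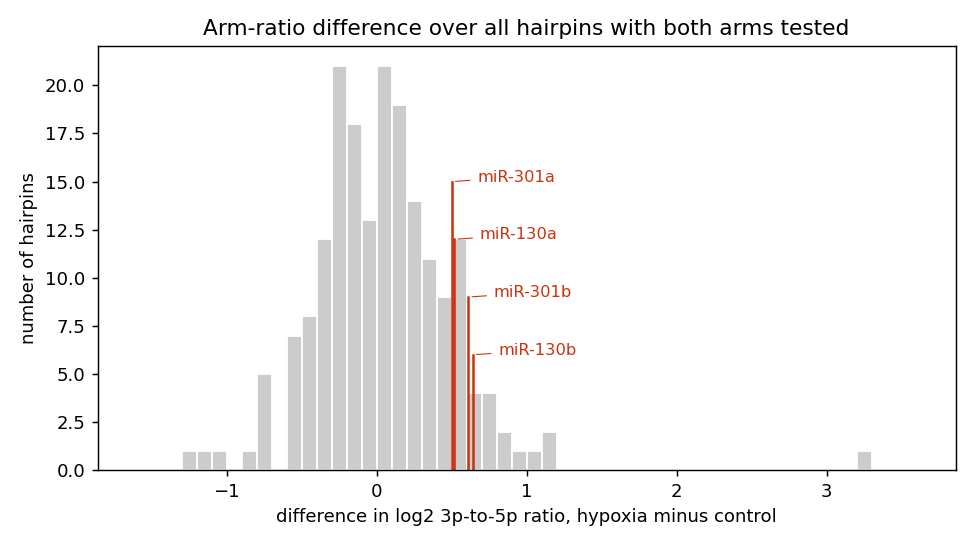
Number of hairpins by difference in log2 3p-to-5p ratio, hypoxia minus control, over the 189 hairpins with both arms tested. Red lines mark the 4 hairpins of the family, between 0.50 and 0.64, and their heights carry no value. All 4 lie above the upper quartile of 0.28.

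Counts of the 2 hairpins in the cluster on chromosome 16 were unequal, though capture of different sequences can differ. Both arms of miR-130b together were 13.2, 16.4 and 11.3 times those of miR-301b in control A, B and C, and 11.5, 11.8 and 13.1 times in hypoxia. The mean was 13.6 ± 2.59 in the controls and 12.1 ± 0.833 in hypoxia (SD, n = 3 each). The means differed by less than the SD of the controls but by more than that of hypoxia. All hypoxia libraries lay within the range of the controls.

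Across the 6 libraries, log2 CPM of the 3p arms was compared in 6 pairs. Pearson's r was 0.90 for miR-130b-3p with either miR-130a-3p or miR-301a-3p and 0.77 for miR-130a-3p with miR-301a-3p. For miR-301b-3p it was 0.80 with miR-130b-3p, 0.65 with miR-301a-3p and 0.62 with miR-130a-3p. Between the arms of 1 hairpin r was -0.08 for miR-130a, 0.41 for miR-130b, -0.17 for miR-301a and -0.12 for miR-301b. Outside the family, 357 miRNAs of at least 10 CPM were compared. The most like miR-130a-3p were miR-181c-5p (r = 0.972), miR-15a-5p (0.969) and miR-29c-3p (0.960). For miR-130b-3p they were miR-18a-5p (0.968), miR-669d-5p (0.960) and miR-17-3p (0.957). For miR-301a-3p they were miR-26a-2-3p (0.973), then miR-374b-5p and miR-374c-5p (0.895 each), whose counts lay within 1% of each other in every library. These coefficients describe 6 libraries of 2 groups with common scaling, and the highest of 357 are high by selection.

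Other miRNAs of hypoxia and of vessels were read from a list of 34, of which 33 were tested. Of these, 18 lay above 0 (median 0.05), a share near the 51.2% of all 619. edgeR called 0 without the block and 2 upward with it, miR-210-3p and miR-503-5p, where the blocked fit called 2.26% of all tested. miR-210-3p, a target of the hypoxia-inducible factors, went from 232 ± 56.8 to 528 ± 128 CPM (SD, n = 3 each, log2 fold change 1.19, SE 0.25), and its other arm miR-210-5p gave 1.59 (SE 0.47). miR-503-5p, a cell cycle repressor, gave 1.02 (SE 0.31) and miR-107-3p, from a pantothenate kinase intron, 0.40 (SE 0.17). For the most abundant of the list, miR-21a-5p and miR-126a-3p, the values were -0.12 (SE 0.14) and -0.09 (SE 0.12). The log2 fold change of 0.47 of miR-130a-3p was thus near that of miR-107-3p and below those of miR-210-3p and miR-503-5p, with none of these differences between miRNAs tested.

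Of 25 cell type markers 19 were tested, the other 6 being too low, and edgeR called none of the 19 with or without the block. All 4 tested cardiomyocyte markers lay above 0. miR-133b-3p stood at 1.11 ± 0.573 CPM in the controls and 2.49 ± 0.800 CPM under hypoxia (SD, n = 3 each), without overlap, a log2 fold change of 1.17 (SE 0.45, adjusted p = 0.662 by edgeR, 0.115 with the block). The values were 0.56 (SE 0.37) for miR-133a-3p, 0.52 (SE 0.51) for miR-499-5p and 0.27 (SE 0.34) for miR-1a-3p. The 6 cardiomyocyte markers, of which miR-1a-3p made up most, summed to 77.2 to 172 CPM in the controls and 104 to 176 CPM under hypoxia. The other lists were less one-sided, with 1 of 2 endothelial markers above 0, 3 of 5 of smooth muscle and fibroblasts, 3 of 5 of blood and 1 of 3 of epithelium. The endothelial arms of miR-126a summed to 227200 to 249700 CPM in the controls and 200700 to 238100 CPM under hypoxia, and the smooth muscle and fibroblast markers to 26080 to 57430 and 26580 to 50350 CPM. The 7 blood markers summed to 49.4 to 55.0 and 42.6 to 56.8 CPM, and the 5 epithelial markers to 4.37 to 9.23 and 5.89 to 7.55 CPM. The summed ranges of the groups overlapped for all 5 lists, and each of the 25 markers had a count in at least 1 library. In such bulk samples fewer cells of a type and less RNA per cell cannot be told apart, and exosomal RNA would not give cell levels directly. The label c-kit+ itself rests on a protein that miRNA counts do not measure.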

How the data were processed

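Small RNA of 3 control and 3 hypoxia libraries was sequenced. The authors deposited raw read counts per known mature miRNA, 1 column per library. Of tools and builds, bcl2fastq 2.0, mm10 and DESeq2 appear in the submitters' processing notes, without roles. No source used here gives the aligner, counting program or miRNA release. A second table, of predicted miRNAs named without sequence, was not used.

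The analysis used edgeR 4.0.16 in R 4.3.3 (filterByExpr, TMM, quasi-likelihood test without a block), with limma 3.58.1 and DESeq2 1.42.0 as alternatives. The scripts were tested on simulated data with planted differences larger than the family's. How often differences of the family's size would be called was not tested. SE was taken as the size of the log2 fold change over the root of its F statistic. For arm ratios the SE is limma's. Hairpins were paired by name where both arms passed the filter. Log2 CPM used a prior count of 2. Host genes came from GENCODE M21, which is on GRCm38, the same build as mm10.

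All members were named. Beside them stood the 3 most alike miRNAs by Pearson's r for each 3p member of at least 10 CPM, miRNAs of the same seed, and, from the list, the 4 with the smallest p and the 2 most abundant. Members and lists were chosen with earlier results of these data known. miR-301b-5p met the naming rule and was included. Column letters match no label. Deviations of log2 CPM from group means correlated at 0.52 (A), 0.43 (B) and 0.28 (C) for same letters and at most 0.12 for unlike letters. The unlike pair of control C and hypoxia B, at 0.12, also passed the limit of 0.1. That limit therefore did not separate same from unlike letters. The pairing by letter rests on column names and values only, and what the letters stand for is not known. Limma on arm ratios was added after seeing the data.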

Additional observations from a re-analysis of the deposited data

How the results depend on the processing

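The 20 alternatives for levels covered scaling, filter, tool, the letter as a replicate block and leaving out libraries or pairs. The number of known miRNAs called, 0 in the planned test, was 4 without the expression filter and 1 with DESeq2. With the replicate block it was 14 in edgeR, 36 in DESeq2, 55 with library size only and 23 without pair B, and 0 without pair A or pair C. Members called numbered 1 with the block in DESeq2 and 2 with the block and library size only, and 0 in the other 18. Log2 fold changes of miR-130a-3p (0.30 to 0.70), miR-130b-3p (0.27 to 0.75) and miR-301a-3p (0.01 to 0.30) were above 0 in all 20, and those of miR-130b-5p (-0.31 to -0.06) and miR-301a-5p (-0.47 to -0.28) below 0 in all 20. The lowest value came without pair B for miR-130a-3p and without control B for miR-130b-3p, and the highest without pair A for both.

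Signs turned for the 3 members of lowest count, where the cause was not tested. Leaving out 1 library gave -0.0451 (without control B) to 0.467 for miR-301b-3p, -0.145 to 0.0896 for miR-130a-5p and -0.439 to 0.0979 for miR-301b-5p. Signs turned for miR-130a-5p without control C (0.00943) or hypoxia A (0.0896), and for miR-301b-5p without control C (0.0979) or hypoxia A (0.0547). For miR-130a-5p the value was also 0.0257 with library size only, 0.0276 with the replicate block and library size only, and 0.0126 with the block without pair A. The stricter filter removed these 3 members.

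The arm-ratio differences stayed above 0 in all 9 alternatives for each of the 4 hairpins, from 0.107 to 0.977 for miR-301b and from 0.349 to 0.740 for the others. Of these alternatives 7 are exact tests that cannot go below p = 0.1 and so could not pass, and the limma fits, with and without the block, called none of the 4. The ratio of the summed 3p level ran from 1.21 to 1.45.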
